A study of Homo sapiens with 12 samples.

Results

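Expression of 10 genes for transcription factors of luminal and epithelial identity was followed in SUM149PT breast cancer cells given an AKT inhibitor, an EZH2 inhibitor, or both. The genes were GATA3, ELF3, ELF5, EHF, SPDEF, FOXA1, XBP1, TFAP2A, TFAP2C and GRHL2. They were listed by name, with earlier results of these data known. All 10 were present among the 23228 genes of the count files, and 9 were among the 14874 genes that had enough counts to be tested. ELF5 did not have enough. The filter is based on a level equal to 10 counts in a library of median size. SPDEF reached that level in only 1 of 3 DMSO libraries, against 3 of 3 libraries of each treated group. A count of tested genes that includes SPDEF therefore leans towards genes that are higher after treatment.

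SUM149PT is an established line from an inflammatory breast cancer with a triple-negative, basal-like profile. The study sequenced polyadenylated RNA from 12 libraries, 3 in each of 4 groups lettered A, B and C, all of 1 cell line with no genetic change between groups. The DMSO group received vehicle throughout and the tazemetostat group received 5 µM tazemetostat, an inhibitor of the histone H3 lysine methyltransferase EZH2, from day -5, with reseeding on day -3 and day -1. The ipatasertib group was held in vehicle until day 0 and then received 5 µM ipatasertib, which blocks the AKT kinases, and the combination group received tazemetostat from day -5 and both inhibitors from day 0. Every group was in medium with 2% serum for the last 24 h, so cells of the combination group had been in tazemetostat far longer than in ipatasertib. Nothing in the labels says that the 3 replicates of a group were separate cultures, so the spread on which each p-value rests may be technical.

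In the mammary gland, luminal cells line the ducts and alveoli and are kept apart from the basal layer by a small set of transcription factors. GATA3 and FOXA1 maintain the mature, hormone-responsive luminal cell, ELF5 and the other epithelium-specific ETS factors ELF3, EHF and SPDEF act in secretory and alveolar cells, and XBP1 drives the secretory apparatus. TFAP2A, TFAP2C and GRHL2 act more widely, holding open the regulatory regions of epithelial genes and of adhesion molecules. EZH2 is the enzyme that places the repressive mark H3K27me3 at silenced lineage genes, and AKT signals growth factor input to FOXO factors and protein synthesis.

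Gene counts summed to 22355242 to 49970540 per library, and the 3 counts that a count of 0 cannot exclude were 0.0602 to 0.130 CPM (counts scaled to a common library size, here with TMM factors). The line's epithelial and basal markers were present under DMSO, with EPCAM at 323 CPM, KRT8 at 838 CPM and KRT5 at 633 CPM. Among the receptors that the line is known to lack, PGR had 0 counts under DMSO, ESR1 stood at 3.89 to 4.15 CPM and ERBB2 at 80.8 to 83.2 CPM. The summed level of 14 markers of immune, endothelial, fibroblast, fat and nerve cells was 927 to 977 CPM in the DMSO libraries, 624 to 657 CPM in those with ipatasertib, 384 to 425 CPM for tazemetostat and 297 to 349 CPM for the combination, with CD3E, ADIPOQ and S100B at 3 counts or fewer in each group. COL1A1, at a mean of 424 CPM, and CD68, at 377 CPM, made up most of the DMSO sum. The markers did not all fall, since with both inhibitors 3 of the 9 tested were called higher and 5 lower. PTPRC was among those higher, with a mean of 0.319 CPM under DMSO and 1.74 CPM with both. The share of reads in no gene lay between 19.1% and 20.6% for DMSO, between 23.9% and 25.7% for ipatasertib, between 17.8% and 18.7% for tazemetostat and between 22.8% and 24.5% for the combination. Both measures moved with treatment, and their part in the results was not tested. The libraries tazemetostat A and combination B differed most from their own groups, and calls of members that changed without them are given both ways. In such bulk RNA, a change in how many cells express a gene and a change in its RNA per cell cannot be told apart.

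Among the tested factors, more were called higher than lower in each treated group, in data where a large share of all genes was called. A gene was called higher or lower when its adjusted p was under 0.05 in the quasi-likelihood test of edgeR, adjusted over all 14874 genes, and changes are log2 fold changes with a standard error (SE) over 3 libraries per group. With ipatasertib, 5 of the 9 rose (GATA3, ELF3, EHF, SPDEF and TFAP2C) and XBP1 fell, where 25.4% of all tested genes were called higher and 28.7% lower. With tazemetostat, 5 rose (GATA3, ELF3, EHF, FOXA1 and TFAP2C) and 2 fell (XBP1 and GRHL2), against 25.1% higher and 20.9% lower among all genes. With both inhibitors, 6 rose (GATA3, ELF3, EHF, SPDEF, FOXA1 and TFAP2C) and XBP1 fell, against 36.5% higher and 34.5% lower. The median log2 change of the 9 genes was 0.30 for ipatasertib, 0.32 for tazemetostat and 0.81 for the combination, beside -0.01, 0.02 and 0.02 over all tested genes. These 3 comparisons share the DMSO libraries. The plot of changes against DMSO sets the 9 genes side by side.

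**Figure D1:**
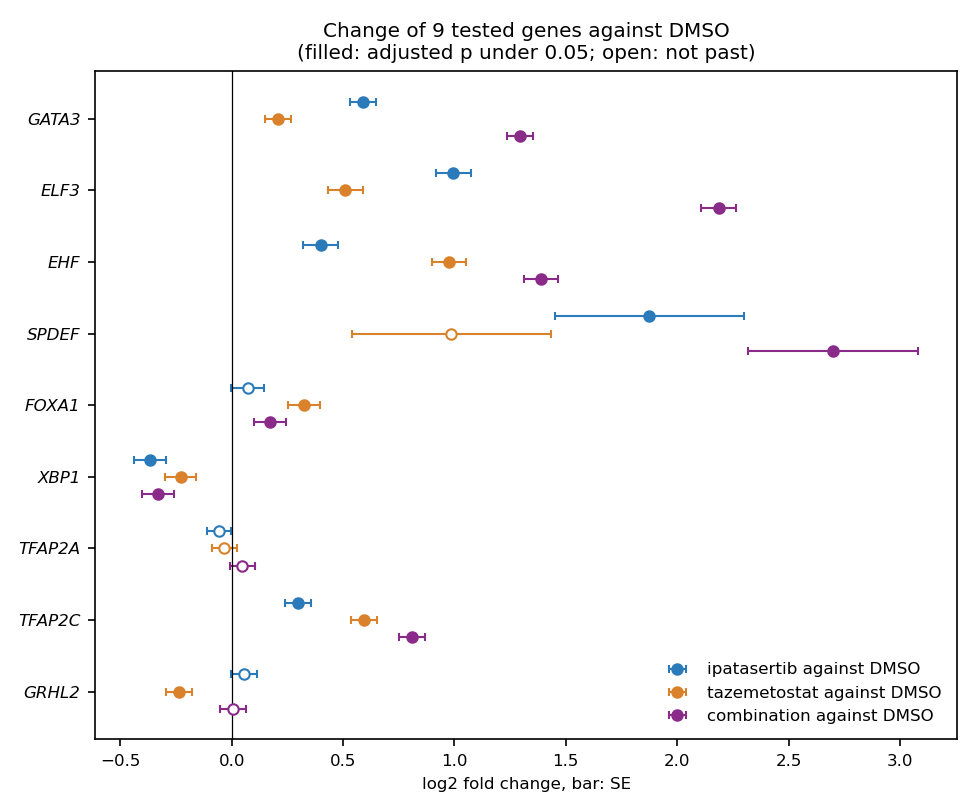
Log2 fold change against DMSO of the 9 tested transcription factor genes for ipatasertib, tazemetostat and the combination; points are estimates, bars are SE, filled points have an adjusted p under 0.05. ELF3 reached 2.19 and SPDEF 2.70 with the combination, whereas XBP1 lay below 0 in all 3 groups.

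The same factors separated the treated groups from each other. In the combination against ipatasertib alone, 5 were higher (GATA3, ELF3, EHF, SPDEF and TFAP2C) by edgeR, where 21.8% of all genes were called higher and 17.3% lower. DESeq2 called 4 of them, without SPDEF, and 0 were lower by edgeR, by DESeq2 or at an unadjusted p under 0.05. In the combination against tazemetostat alone, these 5 and GRHL2 were higher, against 29.8% higher and 30.8% lower among all genes. By edgeR and by DESeq2 0 were lower, and 1, FOXA1, was lower at an unadjusted p under 0.05. With tazemetostat against ipatasertib, 3 were higher (EHF, FOXA1 and TFAP2C) and 4 lower (GATA3, ELF3, SPDEF and GRHL2), against 31.7% higher and 24.6% lower. The interaction is the log2 change with both inhibitors less the 2 single log2 changes added together. It was called above 0 for GATA3 and ELF3 and below 0 for 0 of the 9 by edgeR and DESeq2 (1, FOXA1, at an unadjusted p under 0.05), where 1.87% of all genes were called higher and 1.75% lower. Without tazemetostat A and combination B, 4 were called above 0 (GATA3, ELF3, XBP1 and GRHL2) and FOXA1 below 0, but calls over all genes then rose from 278 above and 261 below to 2565 above and 2201 below.

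**Figure D2:**
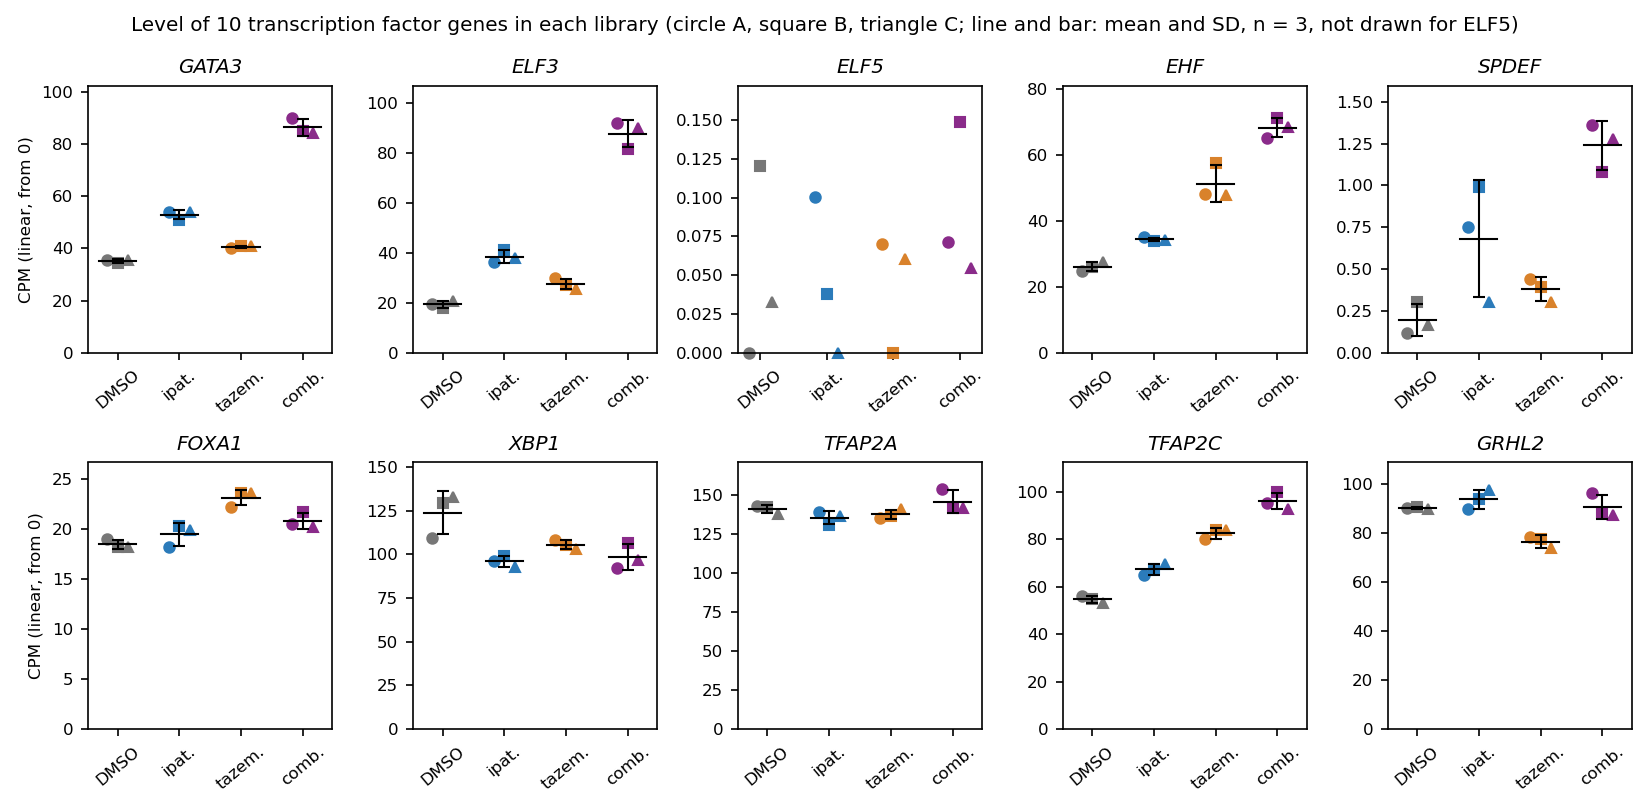
Level of each of the 10 genes in the 12 libraries, in CPM on linear axes that start at 0; points are libraries, lines and bars the mean and SD of 3 (not drawn for ELF5, which had at most 4 counts in a library). GATA3 and ELF3 were lowest under DMSO and highest with the combination, TFAP2A under DMSO overlapped with each treated group, and GRHL2 was lowest with tazemetostat.

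GATA3, the zinc finger factor that specifies and maintains luminal cells, and ELF3, an ETS factor of simple epithelia, had the same order of groups. RefSeq lists 1 promoter window for ELF3 and 6 for GATA3, each of 300 bases with 250 before the start and 50 from it. The windows below are on GRCh38.p14, not on the hg19 build of the counts, and are shown because these are the 2 genes with a called interaction. They lie at chr1:202010337-202010636 on the plus strand for ELF3 and chr10:8054438-8054737 on the plus strand for GATA3, the latter being the window nearest the start of a principal transcript. Capitals mark the AP-2 motif GCCNNNGGC.
ELF3 promoter: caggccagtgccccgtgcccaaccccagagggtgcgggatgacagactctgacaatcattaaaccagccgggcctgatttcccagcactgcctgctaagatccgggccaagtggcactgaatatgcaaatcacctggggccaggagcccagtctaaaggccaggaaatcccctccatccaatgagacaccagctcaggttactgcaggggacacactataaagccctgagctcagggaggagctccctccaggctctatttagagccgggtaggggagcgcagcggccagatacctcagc
GATA3 promoter: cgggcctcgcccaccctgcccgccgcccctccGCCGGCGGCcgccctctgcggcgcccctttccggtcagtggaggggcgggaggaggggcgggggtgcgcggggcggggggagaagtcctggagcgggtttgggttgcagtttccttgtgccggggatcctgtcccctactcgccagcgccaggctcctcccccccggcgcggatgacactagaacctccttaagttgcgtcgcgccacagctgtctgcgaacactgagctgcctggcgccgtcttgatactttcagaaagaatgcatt
The pair differ in base composition. The ELF3 window has 59.0% G and C with 7 CpG dinucleotides, an observed to expected CpG ratio of 0.269, and the GATA3 window has 69.3% with 29 CpG and a ratio of 0.804. The median over 35116 windows was 58.7%, 14 CpG and 0.579. The AP-2 motif, present once in the GATA3 window, was found in 23.2% of all windows on either strand.

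For GATA3, the DMSO libraries A, B and C stood at 35.5, 34.4 and 35.7 CPM. The ipatasertib libraries stood at 54.1, 50.9 and 53.9 CPM, those with tazemetostat at 40.2, 40.9 and 40.8 CPM, and those with the combination at 90.2, 85.0 and 84.2 CPM. No 2 groups overlapped, with DMSO lowest, then tazemetostat, then ipatasertib, and the combination highest. GATA3 rose by 0.59 (SE 0.06, adjusted p = 8.78e-08) with ipatasertib and by 0.21 (SE 0.06, adjusted p = 0.00751) with tazemetostat. The rise with tazemetostat was lost without DMSO B, at 0.16 (adjusted p = 0.0842), and without tazemetostat C, at 0.17 (adjusted p = 0.0530). With both inhibitors GATA3 rose by 1.30 (SE 0.06, adjusted p = 2.18e-13), which is 2.45-fold. That was 0.71 (SE 0.06) above ipatasertib alone and 1.09 (SE 0.06) above tazemetostat alone, and 0.50 (SE 0.08, adjusted p = 0.00146) above the sum of the single changes.

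ELF3 moved over a wider range. Its DMSO libraries stood at 19.6, 17.8 and 20.6 CPM, and those with ipatasertib at 36.4, 41.2 and 38.0 CPM. Tazemetostat libraries stood at 29.7, 27.2 and 25.6 CPM and combination libraries at 92.1, 81.6 and 89.9 CPM. The groups again did not overlap, and each step of the order DMSO, tazemetostat, ipatasertib, combination passed the test. ELF3 rose by 0.99 (SE 0.08, adjusted p = 4.26e-09) with ipatasertib, by 0.51 (SE 0.08, adjusted p = 3.42e-05) with tazemetostat and by 2.19 (SE 0.08, adjusted p = 7.58e-15) with both, the last being 4.55-fold. The combination was 1.19 (SE 0.08) above ipatasertib and 1.68 (SE 0.08) above tazemetostat. Its interaction was 0.68 (SE 0.11, adjusted p = 0.00116), so the level with both inhibitors was 1.60 times that given by adding the single log2 changes.

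**Figure D3:**
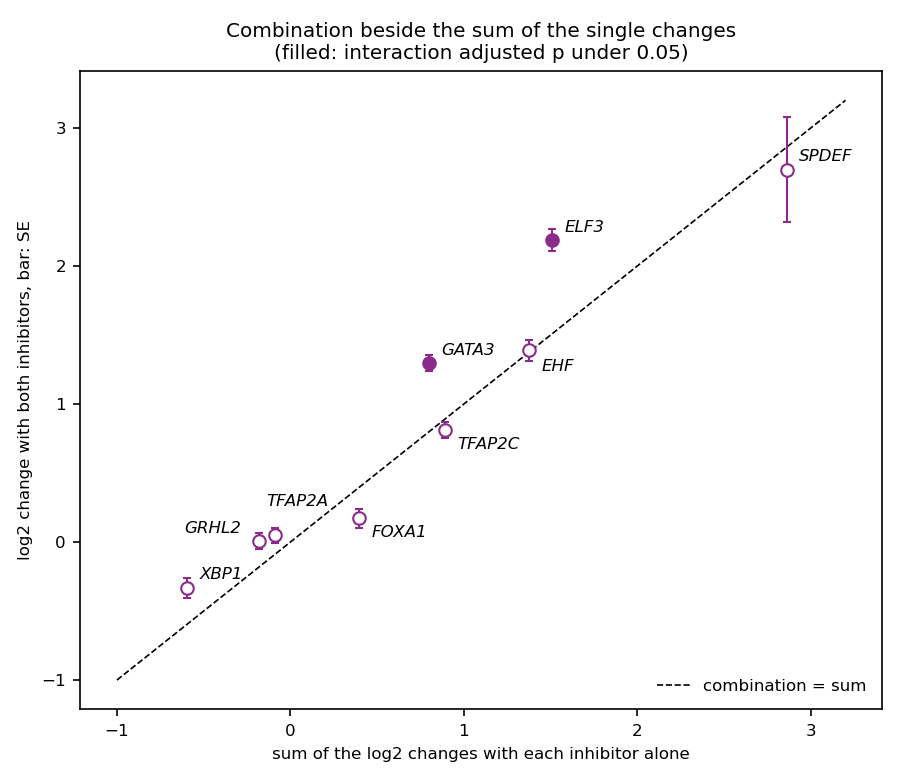
Log2 change with both inhibitors (vertical axis, bars are SE) against the 2 single log2 changes added together (horizontal axis) for the 9 tested genes; the dashed line marks equal values and filled points have an interaction adjusted p under 0.05. ELF3 (2.19 against 1.51) and GATA3 (1.30 against 0.80) lie above the line, and EHF (1.39 against 1.37) lies on it.

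EHF, an ETS factor of ductal and glandular epithelium, responded more to tazemetostat than to ipatasertib. RefSeq lists 2 promoter windows for EHF. The window nearer the start of a principal transcript, at chr11:34624007-34624306, held no match to the 5 motifs searched. The other lies at chr11:34632316-34632615 on the plus strand (GRCh38.p14), 10363 bases from the nearest such start. It is shown as the one of the pair that holds matches to both the forkhead motif GTAAACA and the GATA motif AGATAA, 1 of each, in capitals. The forkhead match is on the minus strand and so printed as its reverse complement.
EHF second window: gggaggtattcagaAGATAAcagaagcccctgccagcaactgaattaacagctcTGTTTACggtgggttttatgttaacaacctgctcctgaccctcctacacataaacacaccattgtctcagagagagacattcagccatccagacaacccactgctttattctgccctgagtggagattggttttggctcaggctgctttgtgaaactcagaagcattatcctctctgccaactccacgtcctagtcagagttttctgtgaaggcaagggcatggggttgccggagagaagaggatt
This window has 48.3% G and C and 3 CpG dinucleotides. The forkhead motif was found in 3.42% of the 35116 windows and the GATA motif in 10.3%, on either strand. A match describes letters and is not a bound site.

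EHF stood at 24.8, 26.1 and 27.4 CPM under DMSO and at 35.0, 34.0 and 34.1 CPM with ipatasertib. It stood at 48.3, 57.7 and 47.9 CPM with tazemetostat and at 65.2, 71.1 and 68.4 CPM with the combination. The 4 groups did not overlap, and the order was DMSO, ipatasertib, tazemetostat, combination, with the single inhibitors exchanged relative to GATA3 and ELF3. EHF rose by 0.40 (SE 0.08, adjusted p = 0.000200) with ipatasertib, by 0.97 (SE 0.07, adjusted p = 3.11e-09) with tazemetostat and by 1.39 (SE 0.08, adjusted p = 3.25e-12), or 2.62-fold, with both. Tazemetostat exceeded ipatasertib by 0.58 (SE 0.07, adjusted p = 1.87e-06). The combined change differed from the sum of the single ones by 0.01 (SE 0.11, adjusted p = 0.966).

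SPDEF, an ETS factor of secretory and goblet cells that is high in luminal breast cancers, was at the edge of detection under DMSO. Its counts there were 5, 10 and 5, which is 0.117, 0.301 and 0.163 CPM. It had 30, 26 and 7 counts (0.753, 0.989 and 0.304 CPM) with ipatasertib, 19, 17 and 15 counts (0.443, 0.395 and 0.301 CPM) with tazemetostat, and 38, 29 and 47 counts (1.36, 1.08 and 1.28 CPM) with the combination. All 3 combination libraries lay above the other 9, while ipatasertib C, at 0.304 CPM, lay beside DMSO B and tazemetostat C, both at 0.301 CPM. SPDEF rose by 1.87 (SE 0.42, adjusted p = 0.000934) with ipatasertib and by 2.70 (SE 0.38, adjusted p = 3.09e-06), or 6.49-fold, with both inhibitors. The change with tazemetostat, 0.99 (SE 0.45, adjusted p = 0.0780), did not pass the test, but did without DMSO B, at 1.40 (adjusted p = 0.0455). The interaction was -0.16 (SE 0.53), so at these counts a departure from additivity of the size seen for ELF3 was not detectable.

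The calls of SPDEF between treated groups rested on few counts. The difference of the combination from ipatasertib alone, 0.82 (SE 0.31, adjusted p = 0.0401), was lost without any 1 of 5 libraries, at 0.88 without ipatasertib A, 0.53 without ipatasertib C, 0.81 without tazemetostat B, 0.74 without combination A and 0.79 without combination C. It was also lost by DESeq2, at 0.82 (adjusted p = 0.0633), and with only the 2 groups compared in the fit, at 0.82 (adjusted p = 0.0595). The lower level with tazemetostat than with ipatasertib, -0.89 (SE 0.35, adjusted p = 0.0380), was lost without ipatasertib A (-0.85), ipatasertib B (-0.64), tazemetostat B (-0.96) or tazemetostat C (-0.77). The combination stood 1.71 (SE 0.32, adjusted p = 0.000106) above tazemetostat alone.

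ELF5, the ETS factor that drives alveolar development and milk production, was close to absent in every group. Its counts in libraries A, B and C were 0, 4 and 1 under DMSO and 4, 1 and 0 with ipatasertib. They were 3, 0 and 3 for tazemetostat and 2, 4 and 2 for the combination. The groups summed to 5, 5, 6 and 8 counts, their ranges overlapped, and no test was made. The ratio of the combination to DMSO was 1.86, with a 95% counting interval of 0.537 to 7.23, so a change was not detectable at this depth.

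FOXA1, the forkhead pioneer factor that opens chromatin for the estrogen receptor, changed little. It stood at 19.0, 18.2 and 18.2 CPM under DMSO, 18.2, 20.3 and 19.9 CPM with ipatasertib, 22.2, 23.6 and 23.6 CPM with tazemetostat and 20.5, 21.7 and 20.2 CPM with the combination. Tazemetostat libraries were above all others, and DMSO and ipatasertib overlapped. FOXA1 rose by 0.32 (SE 0.07, adjusted p = 0.000924) with tazemetostat, and its change with ipatasertib was 0.07 (SE 0.07, adjusted p = 0.428), or 0.19 (adjusted p = 0.0359) under scaling by total counts. The rise of 0.17 (SE 0.07, adjusted p = 0.0405) with both inhibitors was past the threshold in only 8 of 19 alternative analyses. It was lost without any 1 of 8 libraries (DMSO B or C, ipatasertib A or B, tazemetostat B or C, combination A or B), with values of 0.146 to 0.170, and by DESeq2, with no filter or with only the 2 groups compared, and came to 0.31 when libraries were scaled by total counts. Its excess with tazemetostat over ipatasertib, 0.25 (SE 0.07, adjusted p = 0.00483), came to 0.17 (adjusted p = 0.0986) without ipatasertib A. The combination differed from tazemetostat by -0.15 (SE 0.07), which did not pass the test but did at -0.17 (adjusted p = 0.0400) with tazemetostat A and combination B left out, as did the interaction, -0.22 (SE 0.10, adjusted p = 0.233) with all libraries and -0.26 (adjusted p = 0.0369) without the pair.

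XBP1, the bZIP factor of the unfolded protein response that builds the secretory apparatus, was the one member called lower in all 3 treated groups. RefSeq lists 2 windows for it, and the one nearest the start of a principal transcript, at chr22:28800520-28800819 on the minus strand (GRCh38.p14), is shown because XBP1 was called lower in every treated group. The forkhead, GATA and AP-2 motifs spelled out above were not in this window, and neither were the grainyhead motif AACCGGTT and an ETS motif spelled CCGGAAG, so it has no capitals.
XBP1 promoter: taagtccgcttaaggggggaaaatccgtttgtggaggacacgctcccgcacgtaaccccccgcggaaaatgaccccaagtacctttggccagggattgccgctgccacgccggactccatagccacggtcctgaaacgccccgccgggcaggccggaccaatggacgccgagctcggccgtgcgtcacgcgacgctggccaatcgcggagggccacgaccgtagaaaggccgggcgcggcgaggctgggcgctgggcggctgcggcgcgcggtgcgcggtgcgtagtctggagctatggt
It is rich in CpG, with 40 CpG dinucleotides, 68.7% G and C and a ratio of 1.14. The grainyhead motif was found in 0.134% of all windows and the ETS motif in 10.3%. Windows were used for 8 of the 10 members. None was listed for TFAP2C, and GRHL2 was left out of the search beforehand, so both are named only.

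XBP1 stood at 110, 129 and 133 CPM under DMSO and at 96.3, 99.2 and 93.0 CPM with ipatasertib. It stood at 108, 106 and 103 CPM with tazemetostat and at 92.1, 106 and 96.9 CPM with the combination. Every DMSO library was above every treated one, and the treated groups lay close together. XBP1 fell by 0.37 (SE 0.07, adjusted p = 0.000238) with ipatasertib, by 0.23 (SE 0.07, adjusted p = 0.0122) with tazemetostat and by 0.33 (SE 0.07, adjusted p = 0.000365) with both. The fall with tazemetostat was lost without DMSO C, at -0.18 (adjusted p = 0.0774), and under scaling by total counts, at -0.16 (adjusted p = 0.0646). Under that scaling the change with both inhibitors was -0.20 (adjusted p = 0.0166). The interaction of 0.26 (SE 0.10, adjusted p = 0.158) passed without DMSO A, at 0.35 (adjusted p = 0.0487), and with tazemetostat A and combination B left out, at 0.24 (adjusted p = 0.0251).

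Of the 2 AP-2 factors, which bind the same GCCNNNGGC motif, TFAP2C was called in every comparison of 2 groups and TFAP2A in none of them. TFAP2C, the member tied to luminal gene control and ESR1, stood at 56.2, 54.7 and 53.2 CPM under DMSO and 65.0, 67.3 and 69.5 CPM with ipatasertib. It stood at 80.0, 83.9 and 83.8 CPM with tazemetostat and 95.3, 99.8 and 92.9 CPM with the combination. The groups did not overlap, in the same order as for EHF. TFAP2C rose by 0.30 (SE 0.06, adjusted p = 0.000233), 0.59 (SE 0.06, adjusted p = 7.89e-08) and 0.81 (SE 0.06, adjusted p = 1.78e-10) with ipatasertib, tazemetostat and both, the last being 1.75-fold, and its interaction was -0.08 (SE 0.08, adjusted p = 0.649).

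TFAP2A, which is expressed in both mammary layers, stood at 143, 142 and 138 CPM under DMSO and 139, 131 and 137 CPM with ipatasertib. It stood at 135, 137 and 141 CPM with tazemetostat and 154, 142 and 142 CPM with the combination. The DMSO libraries overlapped with each treated group, and the combination libraries lay above those of either single inhibitor, yet no comparison passed the test. Its changes against DMSO were -0.06 (adjusted p = 0.407), -0.03 (adjusted p = 0.649) and 0.05 (adjusted p = 0.444), and under scaling by total counts they were 0.06, 0.04 and 0.18 (adjusted p = 0.00639 for the last), so their sign depended on the scaling. Total counts shifted the median of all genes by 0.12, 0.07 and 0.14 in these comparisons. The difference between the combination and tazemetostat, 0.08 (adjusted p = 0.210), passed the test without combination B, at 0.14 (adjusted p = 0.0315), and under scaling by total counts, at 0.15 (adjusted p = 0.0291). With tazemetostat A also left out, it was 0.13 (adjusted p = 0.0289), and the difference from ipatasertib, 0.10 (adjusted p = 0.145) with all libraries, was 0.12 (adjusted p = 0.0404).

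GRHL2, a grainyhead factor that maintains epithelial junctions and represses mesenchymal genes, was called lower in 1 of the 3 treated groups, tazemetostat. It stood at 90.2, 90.5 and 89.8 CPM under DMSO, 89.9, 94.1 and 97.6 CPM with ipatasertib, 78.4, 77.6 and 73.7 CPM with tazemetostat and 96.4, 88.0 and 87.5 CPM with the combination. The tazemetostat libraries lay below the other 9, which overlapped. GRHL2 fell by 0.24 (SE 0.06, adjusted p = 0.00282) with tazemetostat, and the combination was 0.24 (SE 0.06, adjusted p = 0.00134) above tazemetostat. Its change was 0.06 (SE 0.06, adjusted p = 0.434) with ipatasertib and 0.01 (SE 0.06, adjusted p = 0.919) with both, and these came to 0.17 (adjusted p = 0.0190) and 0.14 (adjusted p = 0.0379) under scaling by total counts. The interaction was 0.19 (SE 0.08, adjusted p = 0.229), and 0.24 (adjusted p = 0.0106) with the libraries tazemetostat A and combination B left out.

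Levels of different genes were compared per kilobase of the longest principal transcript of GENCODE. Under DMSO, TFAP2A at 68.1 and XBP1 at 67.0 CPM per kilobase were the most abundant, followed by TFAP2C at 19.1, GRHL2 at 17.2, GATA3 at 13.3, EHF at 8.29, FOXA1 at 6.45 and ELF3 at 3.87. SPDEF at 0.102 and ELF5 at 0.0220 were far below. With the combination, TFAP2C stood at 33.5, GATA3 at 32.6, EHF at 21.7 and ELF3 at 17.6 CPM per kilobase, beside GRHL2 at 17.3. Which transcript each gene uses in these cells was not analysed here, so these ranks hold for the lengths used.

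Across the 12 libraries, some members formed pairs of like profile and others had no close match among the members. The log2 CPM of GATA3 and ELF3 had a Pearson correlation of 0.990 and that of EHF and TFAP2C 0.981. SPDEF was closer to ELF3 (0.892) and GATA3 (0.869) than to EHF (0.722), whereas FOXA1 was closest to TFAP2C (0.730) and opposite to GRHL2 (-0.718). XBP1 was opposite to ELF3 (-0.667) and GATA3 (-0.661). The points share the 4 groups and their libraries, so these values are a description with no test.

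Among all tested genes, the 3 with the profile most like that of GATA3 were PRSS12 (0.994), TRIB1 (0.992) and ELF3 (0.990). Those most like ELF3 were PLEKHB1 (0.996), TNFRSF21 (0.992) and CMTM8 (0.991). EHF ran closest to PNLIPRP3 (0.990), LYPD6B (0.990) and WBP5 (0.989), and TFAP2C to AHCYL2 (0.990), FOXA2 (0.988) and MYO1D (0.987). FOXA2 is thus a family relative of FOXA1 with the profile of another member. Likeness was weaker for SPDEF (CARD16 at 0.966, LRRC37B at 0.965, GSTM4 at 0.964), GRHL2 (ATF7 at 0.971, ZNF839 at 0.968, GRINA at 0.964) and FOXA1 (PRKAG2 at 0.946, HNF4G at 0.946, CLCN5 at 0.941). It was weakest for XBP1 (ALDH18A1 at 0.932, SRPR at 0.910, ELOVL1 at 0.906) and TFAP2A (ZNF329 at 0.828, PDP2 at 0.810, FLJ39582 at 0.809).

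Of 15 relatives of the members in the GATA, ELF, FOXA, AP-2 and grainyhead families, 9 could be tested. With ipatasertib 2 rose and 4 fell, with tazemetostat 4 rose, and with both 4 rose and 2 fell, with median log2 changes of -0.25, 0.12 and 0.19. Over all tested genes, 25.4% were called higher and 28.7% lower with ipatasertib, and 25.1% and 20.9% with tazemetostat. With both inhibitors the shares were 36.5% and 34.5%. The counts of each list that follows are to be read beside these shares. With tazemetostat 0 fell by edgeR and DESeq2, and 1, ELF4, at an unadjusted p under 0.05. FOXA2, the endodermal forkhead factor, had 0 counts over the DMSO libraries, 7 over those with ipatasertib, 58 for tazemetostat and 81 for the combination. Set against 3 counts over the DMSO group in place of 0, it was 15.2-fold higher with tazemetostat and 31.4-fold higher with the combination. Counting error in the treated groups is not allowed for in these values.

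The grainyhead relatives GRHL1 and GRHL3, which act in epidermal and barrier epithelium, moved opposite to GRHL2 with tazemetostat. GRHL1 fell by 0.65 (SE 0.10) with ipatasertib, rose by 0.66 (SE 0.09) with tazemetostat and differed from DMSO by 0.11 (SE 0.10) with both, which was called at 0.24 (adjusted p = 0.0310) under scaling by total counts. GRHL3 fell by 1.54 (SE 0.44) with ipatasertib and rose by 1.21 (SE 0.29) with tazemetostat, and stood at 0.53 (SE 0.33) with both, which passed the test without DMSO C, at 1.07 (adjusted p = 0.00533). GATA2, a factor of blood and endothelium, fell by 0.71 (SE 0.11) with ipatasertib and rose by 0.49 (SE 0.10) with tazemetostat, and its difference of 0.16 (SE 0.10) with both passed the test without combination B, at 0.25 (adjusted p = 0.0344), and under scaling by total counts, at 0.30 (adjusted p = 0.0145).

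The remaining relatives moved less. GATA6 rose by 0.19 (SE 0.07) with both inhibitors, a call that was lost without DMSO B (0.18) or DMSO C (0.15) and with no filter on low counts (0.18), and that came to 0.33 under scaling by total counts. The widely expressed ETS factors ELF1 and ELF2 rose by 0.41 (SE 0.07) and 0.30 (SE 0.09) with both, and ELF4 fell by 0.40 (SE 0.07), or by 0.27 under scaling by total counts. TFAP2E fell by 0.60 (SE 0.23) with both, which was lost without DMSO A (-0.48) or combination B (-0.40) and under scaling by total counts (-0.47).

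The fall of XBP1 was set beside a list of 25 genes of the unfolded protein response and the secretory pathway, all of which were tested. With ipatasertib 4 rose and 12 fell, with tazemetostat 11 fell, and with both 7 rose and 14 fell, with medians of -0.17, -0.15 and -0.18. With tazemetostat 0 rose by edgeR, by DESeq2 and at an unadjusted p under 0.05. The count for tazemetostat rose to 2 higher and 16 lower without tazemetostat A and combination B. HYOU1, a chaperone of the endoplasmic reticulum, fell by 1.16 (SE 0.07) with both inhibitors, SEC61A1, the channel of protein import, by 0.85 (SE 0.05) and PDIA4, a disulfide isomerase, by 0.81 (SE 0.05). DNAJB9, a co-chaperone known as a target of XBP1, went the other way and rose by 1.03 (SE 0.10). Of the 25 genes, 2 had an interaction called above 0, and 9 above and 1 below with tazemetostat A and combination B left out, when calls over all genes rose from 278 above and 261 below to 2565 and 2201. Leaving out 1 library gave 1 call (without DMSO B, DMSO C, ipatasertib A, ipatasertib C, tazemetostat B or combination C), 5 (without tazemetostat A) or 8 (without combination B), and 2 or 3 otherwise.

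Genes that mark or serve luminal cells did not move as a block. Of 14 tested (of 20 listed), 4 rose and 7 fell with ipatasertib, 7 rose and 2 fell with tazemetostat, and 8 rose and 5 fell with both, with medians of -0.10, 0.24 and 0.36. CYP24A1, a vitamin D hydroxylase, rose by 3.58 (SE 0.21) with both inhibitors, from 0.271 to 0.556 CPM under DMSO to 4.62 to 6.21 CPM. The keratin KRT23 rose by 2.45 (SE 0.16), the secretory disulfide isomerase AGR2 by 2.45 (SE 0.20) and the annexin ANXA9 by 1.17 (SE 0.17). Their means under DMSO were low, at 1.30, 0.872 and 1.46 CPM. More abundant genes of the list went both ways. From DMSO to both inhibitors, the mean of KRT7 went from 1770 to 1368 CPM, CD24 from 327 to 220 CPM and SLC39A6 from 462 to 356 CPM. The mean of ALDH1A3 went from 161 to 227 CPM. The luminal keratin KRT8 fell by 0.70 (SE 0.07) with ipatasertib, 0.29 (SE 0.07) with tazemetostat and 0.76 (SE 0.07) with both, while GATA3 and ELF3 rose. The other luminal keratins did not all follow KRT8. With ipatasertib KRT18 fell by 0.47 (SE 0.07), KRT19 by 0.49 (SE 0.07) and KRT7 by 0.22 (SE 0.08). With tazemetostat KRT18, at -0.17 (SE 0.07), and KRT7, at -0.12 (SE 0.08), were not called, and KRT19 rose by 0.30 (SE 0.07). In the combination the mean of KRT18 was 405 CPM, against 577 CPM under DMSO. That of KRT19 was 243 CPM, against 209 CPM. KRT5, the basal keratin, fell by 2.11 (SE 0.07), 0.40 (SE 0.06) and 3.53 (SE 0.07) with ipatasertib, tazemetostat and both. The basal factor TP63 went the other way, with a mean of 15.9 CPM under DMSO and 26.1, 27.9 and 27.2 CPM in those groups.

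**Figure D4:**
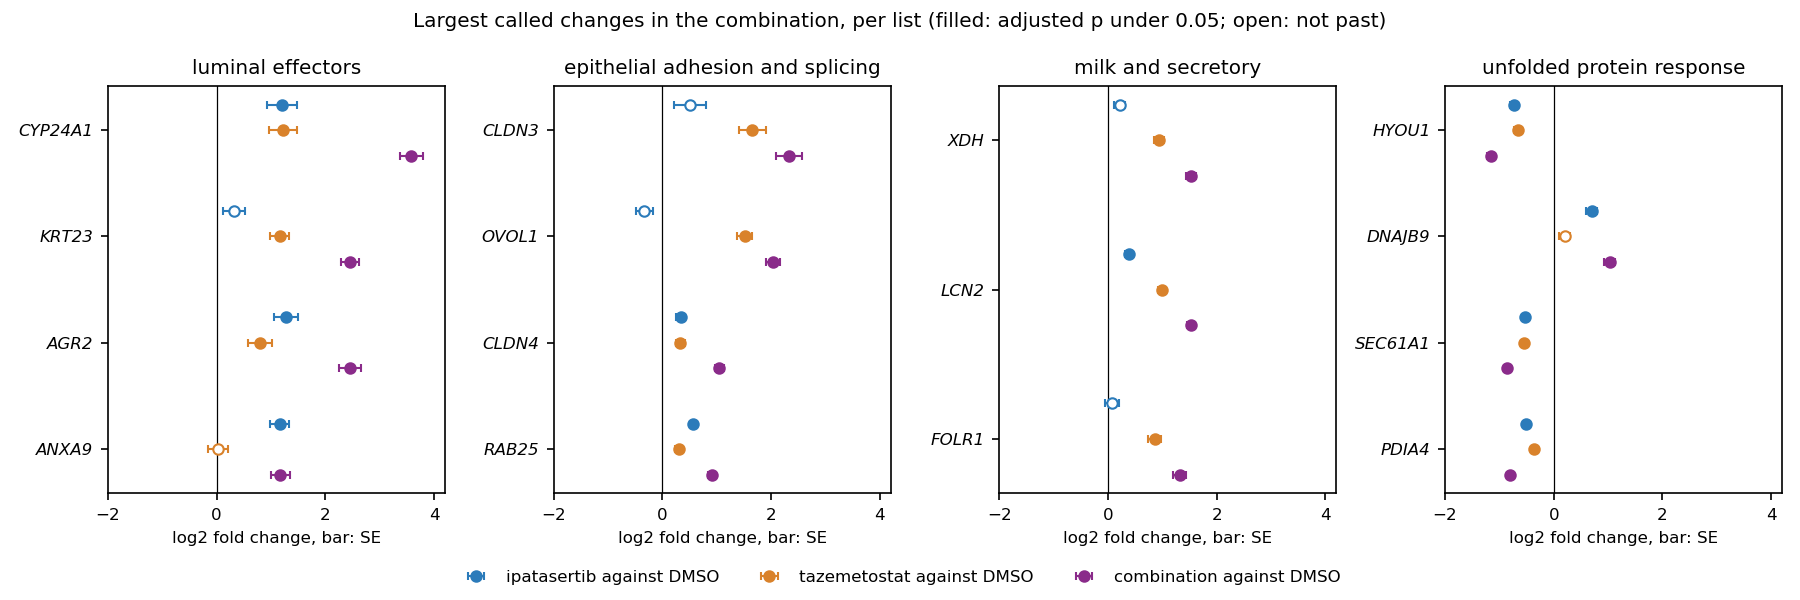
Log2 fold change against DMSO of the genes with the largest called change in the combination in 4 gene lists; points are estimates, bars are SE, filled points have an adjusted p under 0.05. Milk and secretory genes (XDH 1.53, LCN2 1.53 and FOLR1 1.32 with both inhibitors) and CLDN3 (2.34) lie above 0, and HYOU1 (-1.16) lies below.

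Receptors that work with these factors were low or mixed. Of 6 hormone and ERBB receptor genes tested, 2 rose and 1 fell with ipatasertib, 3 rose and 2 fell with tazemetostat, and 4 rose and 1 fell with both, with medians of 0.47, 0.20 and 0.51. ERBB4 rose by 2.20 (SE 0.55) with both, from 13 counts over the DMSO group to 53, of which combination B held 3. ERBB3, a receptor for neuregulins, rose by 0.83 (SE 0.06) and PRLR, the prolactin receptor that acts upstream of ELF5, fell by 1.42 (SE 0.09).

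Epithelial junction and splicing genes, among them known targets of GRHL2, were called in both directions. Of 16 tested, 4 rose and 5 fell with ipatasertib, 6 rose and 5 fell with tazemetostat, and 6 rose and 6 fell with both, with medians of 0.07, -0.07 and 0.09. Over all tested genes, 25.4% were called higher and 28.7% lower with ipatasertib, 25.1% and 20.9% with tazemetostat, and 36.5% and 34.5% with both. The shares of the list with ipatasertib and with both lay near these. The tight junction claudins CLDN3 and CLDN4 rose by 2.34 (SE 0.24) and 1.05 (SE 0.09) with both inhibitors, the zinc finger factor OVOL1 by 2.04 (SE 0.13) and the small GTPase RAB25 by 0.91 (SE 0.07). Under DMSO, CLDN3 had a mean of only 0.597 CPM and CLDN4 of 77.0 CPM. The more abundant claudin CLDN7 went the other way, from a mean of 350 CPM under DMSO to 221 CPM with both. CDH1, E-cadherin, fell by 0.38 (SE 0.05), and EPCAM differed by 0.09 (SE 0.08). For 3 of the 16, the interaction was called above 0, as it was for 1.87% of all tested genes. It was called above 0 for 1 without DMSO B or combination C and for 6 without combination B, when 1 was below 0. With tazemetostat A and combination B left out, 9 were above 0 and 1 below, and calls over all genes rose to 2565 above and 2201 below.

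Only 3 of 10 milk and secretory genes were expressed enough to be tested, and all 3 rose with tazemetostat and with both inhibitors, with medians of 0.93 and 1.53. XDH, a component of milk fat globules, and LCN2, the iron carrier lipocalin, each rose by 1.53 with both (SE 0.09 and SE 0.07), and the folate receptor FOLR1 rose by 1.32 (SE 0.12). With ipatasertib 1 of the 3, LCN2, rose, and 2 were called without tazemetostat A or combination B.

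Factors of basal and mesenchymal cells moved in both directions. Of 11 tested, 3 rose and 2 fell with ipatasertib, 4 rose and 3 fell with tazemetostat, and 5 rose and 5 fell with both, with medians of 0.00, 0.27 and -0.05. Without DMSO B, 2 rose and 1 fell with ipatasertib. SNAI1, a repressor of E-cadherin, fell by 1.34 (SE 0.08) with both inhibitors, and the mesenchymal homeobox factor PRRX1 rose by 1.28 (SE 0.09). EGR2, a zinc finger factor, rose by 3.06 (SE 0.23) with both and had an interaction of 2.58 (SE 0.40, adjusted p = 0.000841). FOXC2, a mesenchymal forkhead factor, had 2 counts under DMSO, both in DMSO C, 0 with ipatasertib and 37 in each of the other groups, a ratio of 21.5 for the combination with a 95% counting interval of 5.55 to 184.

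Markers of other cell types, which the line itself expresses in part, were mixed as well. Of 9 tested (of 14), 6 rose and 3 fell with ipatasertib, 5 fell with tazemetostat, and 3 rose and 5 fell with both, with medians of 0.41, -0.56 and -0.66. Without DMSO A, 2 rose and 3 fell with ipatasertib. With tazemetostat 0 rose by edgeR, by DESeq2 and at an unadjusted p under 0.05. The collagen genes COL3A1 and COL1A1 fell by 5.01 (SE 0.14) and 3.08 (SE 0.10) with both inhibitors and the proteoglycan LUM by 2.41 (SE 0.14), whereas the leukocyte phosphatase PTPRC rose by 2.46 (SE 0.28), from 33 to 157 counts over the group.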

How the data were processed

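The authors deposited raw read counts per gene for 12 RNA-seq libraries, 3 in each of 4 groups assigned from the titles. They name STAR, SAMtools, HTSeq and DESeq2 and the build hg19, per the submitters' processing notes. Their versions, gene annotation and strand setting were not stated, so reads of members and of genes antisense to them, such as GATA3-AS1 and ELF3-AS1, cannot be told apart.

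Counts were analysed as deposited with edgeR 4.0.16 in R 4.3.3, without the 5 lines that name no gene, which held 29.8% to 38.6% of a library's reads. After filterByExpr (minimum count 10) and TMM scaling, 1 quasi-likelihood model was fitted to all 12 libraries, with a coefficient for each group. P-values were adjusted by Benjamini-Hochberg over all 14874 genes tested, in 7 comparisons, and SE is the log2 change divided by the root of F. The fit was tested on simulated data. DESeq2 1.42.0, other scalings, no filter, only the groups compared, a replicate block and left-out libraries were alternatives. Counting intervals and floors cover counting error only.

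Replicates differed by a chi-square per degree of freedom of 2.64 to 24.9, so none was merged. It was 17.3 and 19.1 for tazemetostat A and 14.4 and 24.9 for combination B, against 2.64 to 6.68 in the other pairs. Promoter windows came from RefSeq (GRCh38.p14) and lengths from GENCODE. The members and the 8 other gene lists were chosen with earlier results of these data known. Named were all members, all tested relatives of their families, the 4 called genes per list with the largest change in the combination, and the 3 tested genes most correlated with each member. Some items that these rules would name are not reported here. Keratins and identity markers named beside them come from a fixed marker list, except KRT7 and KRT19, which are in the list of luminal genes. KRT7, CD24, SLC39A6 and ALDH1A3 of that list, CLDN7 of the junction genes and CD68 of the other cell types were named after their values were seen. Single libraries whose loss changed a call were named after their values were seen.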

Additional observations from a re-analysis of the deposited data

Results flagged for a closer look

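The response of GATA3 to 1 inhibitor differed with the presence of the other. Its combined change exceeded the sum of the single changes by 0.50 on the log2 scale (SE 0.08, adjusted p = 0.00146 by edgeR), a test of the difference itself. In 18 of 18 alternative analyses this difference stayed past the threshold, between 0.448 and 0.531. All 3 combination libraries lay above the other 9, which additive changes could also give.

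ELF3 was likewise marked by its interaction, at 0.68 (SE 0.11, adjusted p = 0.00116). It stayed past the threshold in 18 of 18 alternatives, between 0.630 and 0.808. Again all 3 combination libraries were above the other 9, which additive changes could also give.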

How the results depend on the processing

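The number of members called stayed within 1.5 times its value in 131 of 132 alternative results, the exception being the interaction without tazemetostat A and combination B, with 5 members called in place of 2. In that analysis 2565 genes were called above 0 and 2201 below, in place of 278 and 261. Leaving out 1 library at a time gave 6 to 6 members called with ipatasertib, 6 to 7 with tazemetostat, 6 to 7 with the combination, 4 to 5 for the combination against ipatasertib, 6 to 7 against tazemetostat, 5 to 7 for tazemetostat against ipatasertib and 2 to 3 for the interaction.

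Some small changes that were not called turned sign, and the cause was not tested. For TFAP2A, tazemetostat against ipatasertib was -0.0096 with the size factors of DESeq2, -0.0218 with total counts, -0.0113 with no filter, -0.0097 by DESeq2, -0.0168 with only the 2 groups compared and -0.0102 without tazemetostat A and combination B. With total counts, TFAP2A was 0.0593 with ipatasertib and 0.0375 with tazemetostat. The EHF interaction was -0.0366 with total counts, -0.0236 with no filter and -0.0407 without tazemetostat A and combination B. GRHL2 in the combination was -0.0089 with no filter, XBP1 in the combination against ipatasertib was -0.0102 with no filter and -0.0282 without tazemetostat A and combination B, and the SPDEF interaction was 0.0590 in the latter. Over left-out single libraries, TFAP2A ranged from -0.0363 to 0.0244 for tazemetostat against ipatasertib and from -0.0039 to 0.0882 for the combination, the EHF interaction from -0.0226 to 0.118, the SPDEF interaction from -0.598 to 0.159, GRHL2 in the combination from -0.0498 to 0.0475 and XBP1 against ipatasertib from -0.0290 to 0.0634.

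For most libraries the replicate letters showed no pairing, since 2 of 18 same-letter pairs had a correlation of deviations over 0.1 and 3 of 12 libraries were closest to their own letter. Both of those pairs were of tazemetostat with the combination, at 0.302 for A and 0.207 for B. Whether these libraries shared a culture was not tested. With the replicate block, 6, 7, 7, 5, 6, 7 and 2 members were called in the 7 comparisons, as without it. SPDEF at 5 to 10 counts and ELF5 at 0 to 4 counts under DMSO were limited by depth.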
